A study of Mus musculus with 2 samples.

Results

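ELF1 belongs to the ETS family of transcription factors, which bind DNA around a GGAA core, and it was mapped here by ChIP-seq, in which DNA fragments bound by a protein are pulled down with an antibody and sequenced. The peaks described here lie far from the ends of genes. They were the entries of the authors' optimal peak list, on the mouse mm10 build, whose summit (the position of highest signal in a peak) was over 50 kb from both ends of every gene of any type in the RefSeq table of GRCm38.p6. Of 29086 optimal peaks, 29077 were on chromosomes with genes in that table, and 1171 of these met the rule (4.03%, exact 95% binomial interval 3.804 to 4.26%). The interval covers counting error only. The rule measures distance from gene ends, so it also takes summits deep inside long genes. Of the 1171 peaks, 325 (27.8%) lay outside every gene and are called desert peaks here, and 846 (72.2%) lay inside the bounds of a gene and are called deep intragenic peaks. The name gene desert therefore holds for 325 peaks, or 1.12% of the list, and both sets are described below.

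The study had 1 group of 2 biological replicates of CH12.LX, an immortalized cell line from a mouse B-cell lymphoma of strain B10.H-2aH-4bp/Wts, immunoprecipitated with an antibody against ELF1. No other treatment, genotype or condition was part of it, so nothing could be compared between conditions, and peaks are not replicates. The optimal list was made from both replicates together. Peak signal is the authors' value, its scale is not given, and it ranks peaks within a list only. The lists carry no read counts, so the depth behind each value is unknown. ChIP-seq measures no marker genes, so the label of the cell line was not checked with them.

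Gene deserts are long stretches of chromosome without annotated genes. Some are known to hold enhancers, DNA elements that act on the promoters of genes over long distances, and several genes that control cell fate are flanked by such stretches. ETS factors are known both at promoters rich in the dinucleotide CpG and at distant enhancers of blood cells, where PU.1, RUNX, IRF, AP-1, EBF1, E-box and octamer-binding factors also bind.

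Sequence was read from the separate peak list on mm9, because the genome sequence at hand was NCBIM37, which is the mm9 build. With all GENCODE M1 genes, 1298 of 18804 mm9 peaks met the same rule (6.90%, exact interval 6.54 to 7.27%), of which 699 lay outside genes and 599 inside. The annotations differ between the builds, so the 2 shares are not a comparison. The 6 mm9 desert peaks of highest signal are printed first, to show the strongest desert sites of the mm9 list with GENCODE M1 genes. All 6 held a word that tested higher at summits, while 247 of the 699 mm9 desert peaks (35.3%) held none. Not all 6 are desert peaks in mm10, where no desert peak had Il12a or Tgfbr2 as a coding neighbour. There, desert peaks between Dusp10 and Hlx had signals of at most 43.3, and the only 1 between Ets1 and Kirrel3 had 20.8. Mdga1 and Lef1 also border the strongest mm10 desert peaks, described below. Each line gives the coding genes on both sides, the mm9 coordinates, and the plus strand of the 50 bp on each side of the summit. Capitals mark words that tested higher at the summits than in the flanks, on either strand, so that ACTTCCT is the other strand of AGGAAGT and CTTCCGG that of CCGGAAG.

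Il12a to Gm17641, chr3:68598442-68598542: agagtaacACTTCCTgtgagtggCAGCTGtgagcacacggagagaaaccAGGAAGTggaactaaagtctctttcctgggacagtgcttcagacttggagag
1110021J02Rik to Mdga1, chr17:29906141-29906241: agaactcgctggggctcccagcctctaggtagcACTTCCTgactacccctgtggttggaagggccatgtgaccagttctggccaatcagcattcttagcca
Dusp10 to Hlx, chr1:186265267-186265367: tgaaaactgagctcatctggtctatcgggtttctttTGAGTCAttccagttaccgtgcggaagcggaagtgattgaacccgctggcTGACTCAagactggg
Rpl34 to Lef1, chr3:130722142-130722242: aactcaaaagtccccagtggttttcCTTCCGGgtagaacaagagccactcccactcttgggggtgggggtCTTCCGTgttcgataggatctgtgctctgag
Ets1 to Kirrel3, chr9:32748076-32748176: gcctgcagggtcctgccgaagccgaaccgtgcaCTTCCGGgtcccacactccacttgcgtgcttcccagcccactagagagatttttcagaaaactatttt
Tgfbr2 to Rbms3, chr9:116238464-116238564: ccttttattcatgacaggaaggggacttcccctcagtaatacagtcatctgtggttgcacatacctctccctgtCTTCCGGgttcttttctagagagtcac

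The Il12a peak, 96.0 kb from Il12a, which encodes a subunit of interleukin 12, had the highest signal of the 699 mm9 desert peaks, at 817. It held AGGAAGT on both strands of its window and CAGCTG, an E-box. The Dusp10 peak held TGANTCA, the AP-1 word, at 2 places. It held none of the 4 ETS words sought, but the GGAA core was present in its window. The Lef1 peak held CCGGAAG and, farther along, ACGGAAG, and the Ets1 peak, 183 kb from the gene of another ETS factor, held CCGGAAG.

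The next sequences belong to places that the results below name in mm10. An mm9 peak was taken as the same place when its coding neighbours had the same symbols on both sides and its distance to 1 of them agreed within 1 kb, and 20 of 68 named mm10 peaks found such an mm9 peak. Of these 20, 17 also met the distance rule in mm9, and 3 did not, because a GENCODE M1 gene ended nearer than 50 kb.

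Prox1 to Rps6kc1, chr1:192365934-192366034: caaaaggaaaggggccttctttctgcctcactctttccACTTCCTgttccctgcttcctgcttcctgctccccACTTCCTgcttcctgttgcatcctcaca
Celf2 to Gata3, chr2:9671601-9671701: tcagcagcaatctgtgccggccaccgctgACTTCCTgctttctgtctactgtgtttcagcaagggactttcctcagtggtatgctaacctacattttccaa
Myc to Gsdmc, chr15:62262858-62262958: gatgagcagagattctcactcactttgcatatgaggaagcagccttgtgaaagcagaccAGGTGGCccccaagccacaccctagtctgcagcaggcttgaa
Glra1 to Nmur2, chr11:55476801-55476901: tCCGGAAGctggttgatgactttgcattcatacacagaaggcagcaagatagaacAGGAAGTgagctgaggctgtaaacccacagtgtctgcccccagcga
Sec61b to Nr4a3, chr4:47759455-47759555: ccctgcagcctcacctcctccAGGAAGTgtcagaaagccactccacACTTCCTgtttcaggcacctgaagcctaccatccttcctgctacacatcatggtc
Cxcr4 to Thsd7b, chr1:130609514-130609614: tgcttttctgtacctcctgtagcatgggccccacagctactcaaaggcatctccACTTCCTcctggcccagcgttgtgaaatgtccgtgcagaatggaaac
Runx1 to Setd4, chr16:93020545-93020645: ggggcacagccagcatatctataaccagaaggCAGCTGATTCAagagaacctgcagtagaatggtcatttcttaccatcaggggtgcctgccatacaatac

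In 15 of the 20 matched windows at least 1 of the words stood in capitals, and all windows of the last printed block are among these 15. The Cxcr4 window is that of the mm10 peak of signal 53.8. The matched windows of the Cxcr4 peaks of signal 75.1 and 51.1 held no such word. The Nr4a3 window held AGGAAGT in both orientations, and the Prox1 window held it at 2 places on the same strand. The Myc window held none of the 4 ETS words sought, only AGGTGGC, a CTCF-like word, though the GGAA core was present. In the Runx1 window the E-box and the AP-1 word overlapped, and it held no ETS word.

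Few optimal peaks were found per megabase in deserts. Sequence outside genes and over 50 kb from any gene end covered 426 Mb, which is 16.3% of the sequence between the first and the last gene of each chromosome, and held 325 peaks, or 0.763 peaks per Mb. Sequence deep inside genes covered 231 Mb with 846 peaks, or 3.67 peaks per Mb. The remaining 1955 Mb held 27906 peaks, or 14.3 per Mb. Density fell with distance in every band. Outside genes it was 1.10 per Mb at 50 to 100 kb, 0.671 at 100 to 200 kb and 0.136 at 200 to 500 kb, where 9 peaks were left, against 70.4 per Mb within 1 kb and 3.21 at 20 to 50 kb. In the 17.1 Mb that lie over 500 kb from any gene, the list held 0 peaks. Inside genes the density was 5.13 per Mb at 50 to 100 kb and 2.18 at 100 to 200 kb, and so higher than outside genes in every band that held peaks. How much of each band can be mapped by short reads was not measured, and its part in these densities was not tested.

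**Figure D1:**
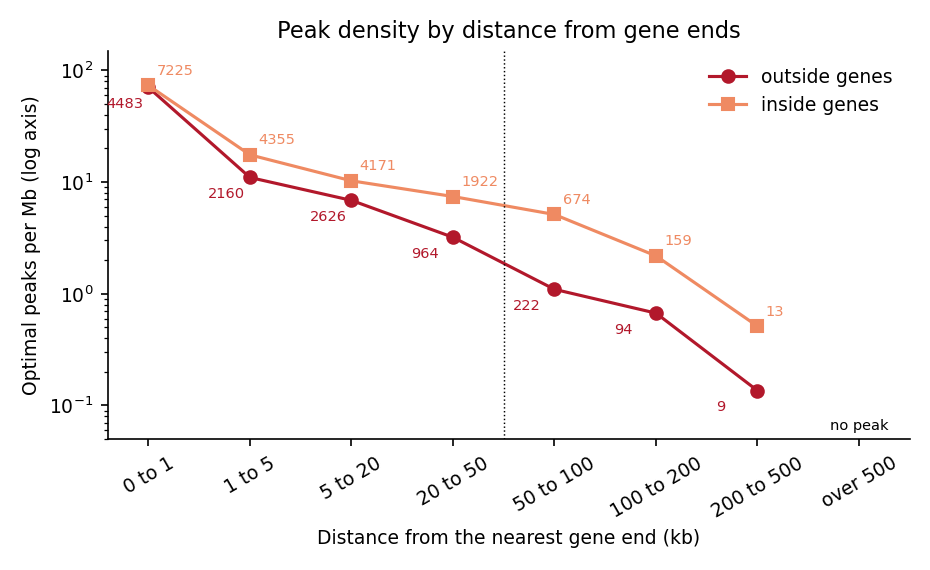
Optimal peaks per Mb (log axis) by distance of the summit from the nearest gene end, in kb, outside genes (circles) and inside genes (squares), with the number of peaks at each point. The dotted line marks the 50 kb threshold, and beyond it the density falls to 0.136 per Mb outside genes and 0.512 inside at 200 to 500 kb.

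Density in deserts differed between chromosomes, with no test run. It was highest on chromosome 11, at 1.63 desert peaks per Mb of desert, and lowest on chromosome X, where 37.5 Mb of desert held 4 peaks, or 0.107 per Mb. Chromosome 15 came after chromosome 11, with 31 desert peaks in 20.7 Mb, and then chromosome 10, at 1.42 per Mb. Over all optimal peaks, chromosome 11 was likewise the densest, at 27.5 per Mb between its first and last gene, and chromosome X the sparsest, at 2.36. Chromosome 11 was also the densest for deep intragenic peaks, at 9.45 per Mb, and chromosome X the sparsest, at 0.627.

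The 325 desert peaks lay at a median of 75.9 kb from the nearest gene end (quartiles 59.8 and 109 kb), and 103 of them (31.7%) lay over 100 kb away. The nearest gene was a lncRNA for 140, a coding gene for 97, a pseudogene for 58, a snoRNA for 17, a snRNA for 10, a miRNA for 2 and a misc_RNA for 1. Their nearest coding gene was at a median of 135 kb. Within 10 kb, 113 of the 325 desert peaks (34.8%) had another optimal peak, against 63.1% of all optimal peaks. The list can hold several entries for 1 region, and 36 desert peaks (11.1%) overlapped another entry, against 15.4% of all entries. The 325 desert peaks made up 307 separate regions.

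The rule's threshold falls within a continuous range. The 3 members closest to it lay 50005, 50007 and 50047 bp from a gene end, all inside genes (Prkch, Tmem266 and Shb), with signals of 30.4, 32.2 and 36.3. The 3 peaks just short of it lay 49949 bp from a gene end, near D16Ertd472e, and 49967 bp in 2 cases, with signals of 24.6, 80.4 and 46.8.

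Desert peaks were of lower signal than the list as a whole. Their median signal was 31.4 (quartiles 23.9 and 45.8, highest 303), and that of deep intragenic peaks was 32.0 (quartiles 23.9 and 49.1, highest 295). Peaks 1 to 50 kb from a gene end had medians close to these, 33.2 outside genes and 33.7 inside, and peaks within 1 kb of a gene end had a median of 59.9. All optimal peaks had a median of 39.7. The strongest 10% of the list, 2907 peaks, held 4 desert peaks (1.23% of the 325) and 10 deep intragenic peaks (1.18% of the 846), against 10.4% of the peaks that did not meet the rule. The weakest 10% held 46 desert peaks (14.2%) and 92 deep intragenic peaks (10.9%), against 9.93% of the other peaks. These are descriptions of 1 list, with no test.

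**Figure D2:**
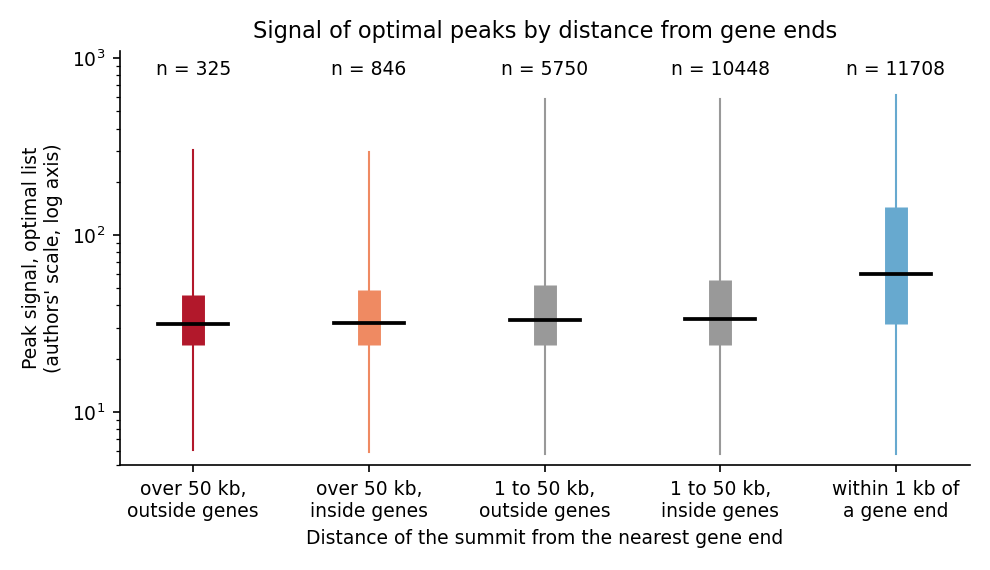
Peak signal in the optimal list (authors' scale, log axis) by the distance of the summit from the nearest gene end. Thick bars span the quartiles, black lines mark medians and thin lines run from the lowest to the highest peak, with the number of peaks above. Medians were 31.4 and 32.0 beyond 50 kb, outside and inside genes, and 59.9 within 1 kb of a gene end.

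Most desert peaks were present in the separate list of each replicate. A replicate's relaxed list holds peaks and background together, and a summit within 100 bp counted as present. Replicate 1 held 294 of the 325 desert peaks (90.5%) and replicate 2 held 304 (93.5%). Both held 279 (85.8%, exact interval 81.6 to 89.4%), against 85.4% of all optimal peaks, and 6 were in neither. Of the 846 deep intragenic peaks, 707 (83.6%, exact interval 80.9 to 86.0%) were in both. The share in both replicates was thus near that of the whole list. Among as many of the strongest entries of each replicate as the optimal list holds, 169 desert peaks (52.0%) and 459 deep intragenic peaks (54.3%) were in both, against 62.9% of all optimal peaks. Within the stronger 50% of the list, 107 of 110 desert peaks (97.3%) were in both replicates, against 97.4% of the peaks that did not meet the rule. Within the weaker 50% it was 172 of 215 (80.0%, exact interval 74.0 to 85.1%), against 73.2%. The conservative list, which the authors made more strictly from the same replicates, overlapped 235 desert peaks (72.3%, exact interval 67.1 to 77.1%) and 667 deep intragenic peaks (78.8%), against 81.3% of all optimal peaks. That list is nearly as long as the optimal list, with 27399 entries against 29086. By the same rule it held 307 desert peaks of its own, so it is not a small subset of the optimal list.

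Signals of the same desert peak in the 2 replicates were correlated, with more scatter than over the whole list. Over the 279 desert peaks in both, the median signal was 14.7 in replicate 1 and 19.3 in replicate 2, and the median ratio of replicate 2 to replicate 1 was 1.31. Across these peaks, which come from the same 2 libraries, Pearson's r of the log2 signals was 0.67 and Spearman's rank correlation 0.585. Over all 24835 optimal peaks in both, the values were 0.86 and 0.812, and signals there span a wider range.

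**Figure D3:**
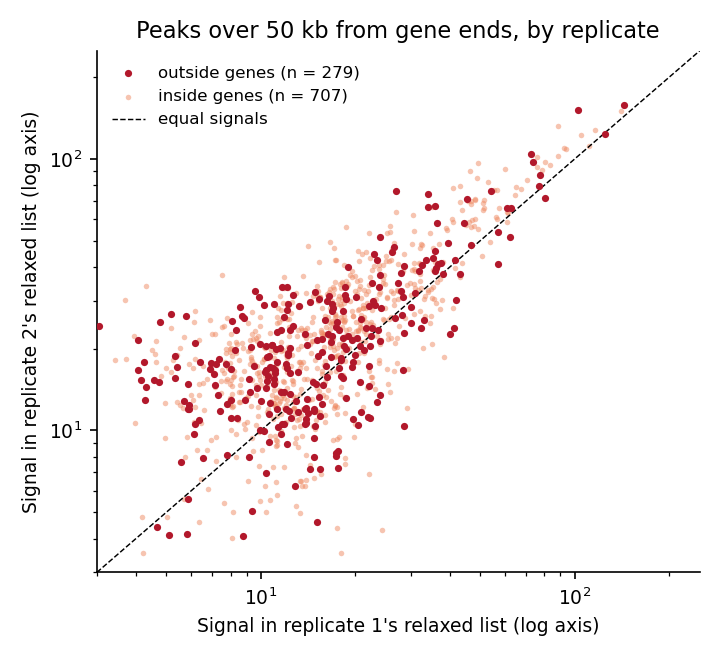
Signal of each peak over 50 kb from gene ends in replicate 1's and replicate 2's relaxed lists (log axes), for 279 desert peaks (dark) and 707 deep intragenic peaks (light) present in both. The strongest peaks lie near the dashed line of equal signals, and scatter is wider below a signal of about 20.

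The strongest desert peak lay at chr17:29769127-29769371, 52.2 kb from Ccdc167 and 58.7 kb from Mdga1, which encodes a cell adhesion protein. Its signal was 303, rank 1086 of the list, with 144 in replicate 1 and 158 in replicate 2. The next was at chr3:131019149-131019382, 91.0 kb from Lef1, a transcription factor of T and early B lymphocytes that acts in Wnt signalling. Its signal was 254, with 102 in replicate 1 and 151 in replicate 2. A weaker peak of signal 58.4 lay beside it, 90.4 kb from Lef1. The third was at chr1:190541992-190542208, 231 kb from Rps6kc1 and 371 kb from Prox1, a homeobox factor of lymphatic endothelium. Its signal was 245, with 125 in replicate 1 and 123 in replicate 2. These 3 and the fourth, at chr14:45772750-45772840 between the phospholipase gene Ddhd1 (115 kb) and the growth factor gene Bmp4 (611 kb), were the only desert peaks in the strongest 10% of the list. The fourth had a signal of 177, with 72.6 in replicate 1 and 104 in replicate 2.

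The fifth to the eighth had signals between 153 and 170 and were found in both replicates. They lay 76.2 kb from Fam43a at chr16:30678837-30679200, 441 kb from Myc at chr15:62431263-62431371, 107 kb from Gata3 at chr2:9749938-9750032, and 57.3 kb from Peli1 at chr11:21033951-21034054. Myc is a transcription factor that drives cell growth and division, and Gata3 one that specifies T cells. Peli1 encodes a ubiquitin ligase of receptor signalling in immune cells. The Myc peak had a signal of 77.3 in replicate 1 and 87.1 in replicate 2, and the noncoding gene Pvt1 ended 171 kb from it. The Gata3 peak had 80.6 in replicate 1 and 72.0 in replicate 2, and was, with the Prox1 peak, 1 of the 2 among the first 8 with the higher value in replicate 1's list.

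The ninth to the twelfth had signals of 131, 127, 119 and 115. They lay near Glra1, a glycine receptor subunit (55.2 kb), between Sec61b and the orphan nuclear receptor gene Nr4a3 (298 kb), between Gdap2 and Tent5c, a poly(A) polymerase of plasma cells (109 kb), and between Opa1 (64.4 kb) and Hes1, a repressor in Notch signalling (338 kb). All 12 overlapped the conservative list.

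The peaks farthest from any gene end were weak. A deep intragenic peak in Nrxn3, a neuronal adhesion gene 1612 kb long, lay 499 kb from the nearest gene end with a signal of 21.97. The desert peak farthest out was at chr3:42449522-42449885, 472 kb from Gm7899 and 2929 kb from Pcdh10, with a signal of 22.7. It was present in both replicates, at 10.2 in replicate 1 and 9.97 in replicate 2. Of 2 more in the same stretch, 412 and 352 kb from a gene end, the nearer was found in replicate 2 alone. Between these 2 in distance, a peak between Tbl1xr1 and Naaladl2 lay 389 kb from a gene end with a signal of 27.7.

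Most stretches with a desert peak held a single one. The 325 peaks fell into 191 stretches between neighbouring coding genes, of which 118 held 1 peak, 73 held 2 or more and 4 held 5 or more. The 5 fullest, with ties ordered by signal, held 33 peaks and were 277 to 2952 kb long. Stretches differ in length, and no test of gathering was run. These counts are of list entries, and overlapping entries of 1 region were each counted. The Myc to Gsdmc and Nmbr to Cited2 stretches hold such entries, as do some stretches with 2 peaks, such as Icos to Pard3b. Separate regions are fewer there. Between Smim20 and Rbpj, the gene of the DNA-binding factor of Notch signalling, were 9 peaks at 64.8 to 201 kb from Rbpj, with signals of 18.8 to 66.9, and 8 of them were in both replicates. Between Myc and Gsdmc were 8 peaks at 336 to 471 kb from Myc, with signals of 7.80 to 161, of which 6 were in both replicates and 3 overlapped the conservative list. On the other side of Myc, toward A1bg, were 4 more, of which 1 was in both replicates. Between Cxcr4, a chemokine receptor gene of B and other blood cells, and Thsd7b were 7 peaks at 83.5 to 217 kb from Cxcr4, with signals of 24.97 to 75.1, and 6 were in both replicates. Between Nmbr and Cited2, a transcriptional co-regulator gene, 5 peaks lay 317 to 522 kb from Cited2, 4 of them in both replicates. The 4 peaks between Sec61b and Nr4a3, at 212 to 298 kb from Nr4a3, were all in both replicates and all overlapped the conservative list. Their signals were 27.6, 27.8, 77.0 and 127.

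**Figure D4:**
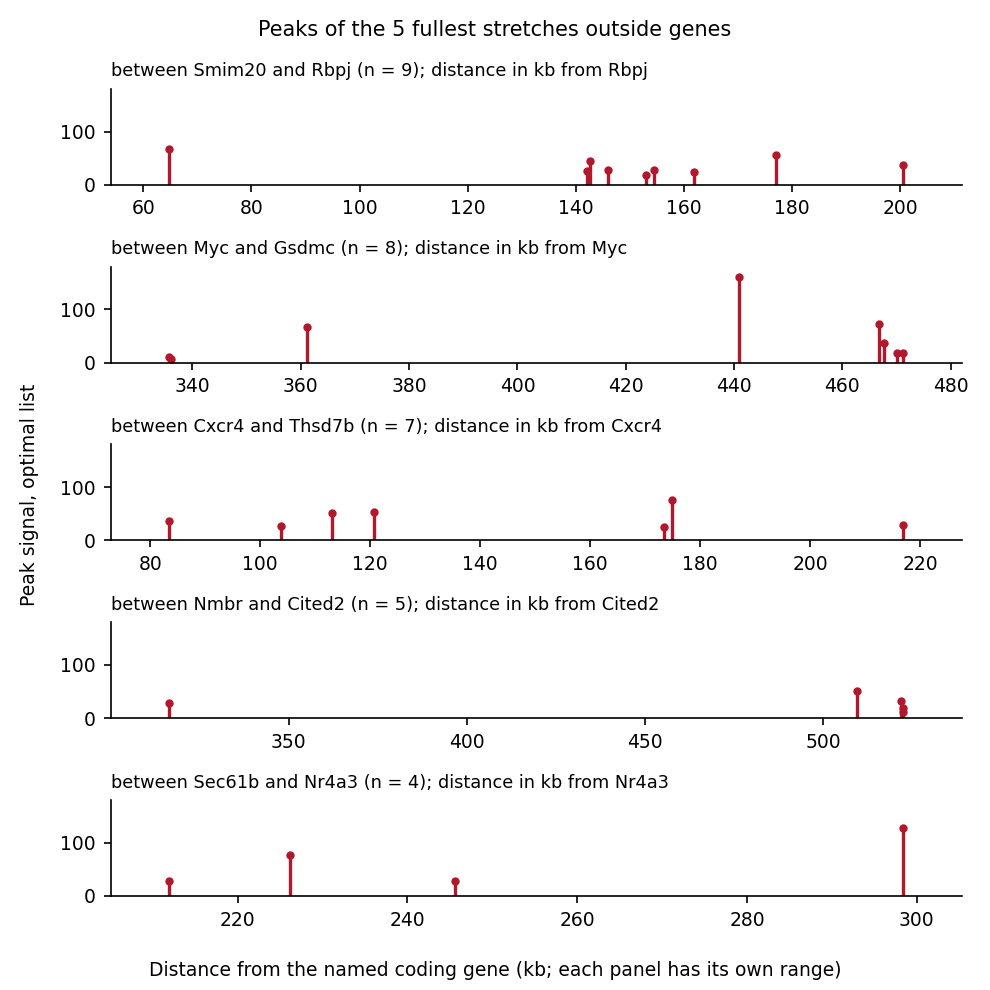
Signal of each desert peak in the 5 stretches between coding genes that held the most, against its distance in kb from the coding gene named above each panel (each panel has its own range). The highest bars are the peak of signal 161 at 441 kb from Myc and the peak of 127 at 298 kb from Nr4a3, and the 9 peaks of the Rbpj stretch range from 18.8 to 66.9.

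Genes known in lymphocytes were counted among the neighbours, from lists chosen with earlier results of these data known. Of 2635 coding genes that border sequence over 50 kb from every gene end, 372 (14.1%) had a desert peak between themselves and the next coding gene. Of 40 B cell regulators, 15 border such sequence and 7 of the 15 had a desert peak: Myc, Cxcr4, Ptprc, Ebf1, Runx1, Zeb2 and Ets1. Of 20 genes of T cells and innate lymphoid cells, 11 border such sequence and 7 had a desert peak: Lef1, Gata3, Ifng, Runx2, Satb1, Tox and Icos. Of 30 developmental transcription factors, 24 border such sequence and 3 had one, among them Meis1 and Irx1. Of 24 genes of neuronal adhesion and synapses, 23 border such sequence and 2 had one: Adgrl3 and Pcdh10. A gene counted at any distance from the peak, such as 3482 kb for Zeb2. The counts are small, genes that share a stretch are not independent, and no test was run. Which gene a peak acts on, if any, is not in these data.

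Among the B cell genes the peaks beyond Myc and Cxcr4 were mostly of low signal. Ptprc, which encodes the CD45 phosphatase of blood cells, had 1 desert peak of signal 46.6 between itself and Nr5a2, 988 kb from Ptprc and 115 kb from Nr5a2, at 24.02 in replicate 1 and 21.4 in replicate 2. Ebf1, a factor that specifies B cells, had 1 of signal 33.9 at 206 kb, with 17.95 in replicate 1 and 15.9 in replicate 2. Runx1, which encodes a factor of blood stem and lymphoid cells, had 4 with a highest signal of 30.9, and 2 of the 4 were in both replicates. Zeb2 had 1 of signal 24.2 at 3482 kb, in a stretch of 3697 kb that ends at Acvr2a. Ets1 had 1 of signal 20.8 at 429 kb. Of the T cell genes beyond Lef1 and Gata3, the strongest peak was 198 kb from Ifng, the interferon gamma gene. Its signal was 36.7. The strongest of Icos, of signal 10.3, lay 476 kb from that gene. The Satb1 peak lay 496 kb from Satb1 and 59.3 kb from Tbc1d5, and the Tox peak 1094 kb from Tox and 56.3 kb from Car8. The peak next to Irx1 was found in replicate 1 alone.

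The 846 deep intragenic peaks lay in 374 genes, of which 364 were coding, and 22 of the peaks lay in noncoding genes only. The longest gene around a peak had a median length of 289 kb. Akap13, which encodes a kinase-anchoring protein, held 13, with signals of 11.9 to 114, and 10 of these were in both replicates. Ebf1 held 12, with signals of 13.2 to 69.1, of which 7 were in both replicates. Atxn1 held 12, and Ppp3ca (the catalytic subunit of calcineurin), Celf2, Rap1gap2 and Prkce held 10 each. Only genes over 100 kb can hold such a peak, and 364 of the 2429 coding genes of that length did, or 1.68% of all coding genes. Such a peak lay in 4 of the 40 B cell regulators (Runx1, Ebf1, Ptprc and Ets1) and 1 of the 20 T cell genes (Tox). It lay in 2 of the 30 developmental factors (Sox6 and Zfhx4) and 0 of the 24 neuronal genes. Length was not matched between these lists and their genes over 100 kb were not counted, so these counts are not a comparison with the 1.68%.

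The strongest deep intragenic peak, of signal 295, lay in Slc39a11, a zinc transporter gene, at chr11:113565667-113565877, with 140 in replicate 1 and 150 in replicate 2. Its summit was 52 bp from an alternative start site of Slc39a11 in the RefSeq promoter table. Others among the strongest 6 were in Vti1a, a vesicle fusion gene (229), Arid1b, a chromatin remodelling subunit gene (225), Scn8a, a sodium channel gene (219), and Dgki, a lipid kinase gene (202), with no listed start site within 1 kb. Of the 846 peaks, 23 lay within 1 kb of a listed start site, all in the gene that holds the peak. Their median signal was 45.2 (quartiles 28.6 and 69.7), against 31.9 (quartiles 23.9 and 49.0) for the other 823. They included starts in Tnrc6b (103), Lrrfip1 (103), Rap1gap2 (80.5) and Runx1 (45.2). The sequence around the internal Slc39a11 start is printed from RefSeq (GRCm38.p6), 250 bases before to 50 after the start on the gene's strand, because it is the strongest of these. The printed stretch ends just short of the peak summit. In the matched mm9 window around that summit, which is not printed, AGGAAGT was the word present. Capitals mark the ETS words CCGGAAG and ACGGAAG, then AGGAAGT and last AGAGGAAG, on either strand.

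Slc39a11 internal start, chr11:113565766-113566065, minus strand: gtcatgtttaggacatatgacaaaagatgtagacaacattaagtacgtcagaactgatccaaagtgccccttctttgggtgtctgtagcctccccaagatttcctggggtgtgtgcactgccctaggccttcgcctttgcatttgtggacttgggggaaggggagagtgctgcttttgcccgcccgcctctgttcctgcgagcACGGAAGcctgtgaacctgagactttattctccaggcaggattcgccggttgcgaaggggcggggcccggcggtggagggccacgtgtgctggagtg

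At mm9 summits over 50 kb from gene ends, 2 ETS words were the most frequent of the 15 words sought, and the one without a CpG led. Over the 1298 mm9 members inside and outside genes, each word was looked for in either orientation up to 50 bp from the summit, and in 2 equally long flank windows whose centres lay 500 bp to the left and to the right. The exact McNemar test, two-sided, compared each word between summit and flank within the same peaks, with Benjamini-Hochberg adjustment over 30 tests, and the larger of the 2 adjusted p-values is given. At the threshold of 0.05, 10 of the 15 words (66.7%) were more frequent at the summit than in both flanks, and none was less frequent. Neighbouring peaks are not independent. The base composition of the flank windows was not measured, and its part in these differences was not tested.

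AGGAAGT was present at 526 of 1298 summits (40.5%, exact interval 37.8 to 43.3%), against 3.24% of left and 2.08% of right flanks (adjusted p = 9.70e-119, exact McNemar test). CCGGAAG, which contains a CpG, was present at 10.2%, against 0.0770% and 0.308% (adjusted p = 2.76e-34, exact McNemar test). Among the 9173 mm9 peaks within 1 kb of a GENCODE M1 transcript start, which are described with no test, the order was the other way round, with AGGAAGT at 12.8% and CCGGAAG at 26.3% of summits. Among the 8371 mm9 peaks that were neither members nor at a start, AGGAAGT was at 34.4% (exact interval 33.4 to 35.5%) and CCGGAAG at 11.8%, closer to the members, and over all mm9 peaks the shares were 24.3% and 18.8%. AGAGGAAG, the purine-rich word that PU.1 is known to bind, was at 7.63% of member summits, against 1.23% and 1.46% of their flanks (adjusted p = 1.53e-13, exact McNemar test), and at 3.60% of start-site and 7.74% of the 8371 other summits. ACGGAAG was at 3.47%, against 0.539% and 0.308% (adjusted p = 2.09e-07, exact McNemar test). At least 1 of these 4 ETS words was at 714 of 1298 member summits (55.0%, exact interval 52.3 to 57.7%), against 4.78% and 4.01% of their flanks. The same share was 42.5% (41.4 to 43.5%) at start-site summits, 50.1% (49.05 to 51.2%) at the 8371 other peaks and 46.7% over all mm9 peaks. For the 699 desert peaks alone it was 52.5% (48.7 to 56.3%), and 57.9% (53.9 to 61.9%) for the 599 deep intragenic ones. The GGAA core itself was within 50 bp of 96.3% of member summits, against 66.9% and 65.4% of their flanks.

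Words of other factors were also more frequent at the summits than in the flanks. CAGCTG, an E-box, was at 9.17% of member summits, against 4.85% and 5.08% of their flanks, at 5.23% of start-site summits and at 8.70% of the 8371 other summits. TGANTCA, the word of AP-1, was at 7.24%, against 3.005% and 3.62%, at 1.58% of start-site summits and at 6.34% of the 8371 other summits. Both had an adjusted p of 0.000161 by the exact McNemar test. GGAANTGAA, the composite word of ETS and IRF factors, was at 5.24%, against 0.924% in each flank (adjusted p = 2.29e-10, exact McNemar test). ATTTGCAT, the octamer, was at 2.47%, against 0.693% and 0.924%. CCCNNGGGA, the word of EBF1, was at 3.47%, against 1.46% and 1.39%. AGGTGGC, a CTCF-like word, was at 3.39%, against 1.54% and 1.46%. The adjusted p-values of these 3 were 0.00499, 0.00188 and 0.00381 by the exact McNemar test. At the 8371 other summits, GGAANTGAA was at 4.59%, ATTTGCAT at 1.97%, CCCNNGGGA at 2.17% and AGGTGGC at 4.10%. For AGGTGGC that share was above the members' 3.39%, and for the other words it was below. Run on desert peaks alone, an addition made with the main values known, 8 words passed, and the octamer and the EBF1 word did not.

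The other 5 words did not pass. TGTGGTT, the RUNX word, was at 4.01% of member summits, against 1.85% and 2.70% of their flanks (adjusted p = 0.0947, exact McNemar test). GAAANNGAA of IRF factors, the NF-kB words GGGACTTTC and then GGAATTTCC, and AGGGGGC, another CTCF-like word, had adjusted p-values of 0.386, 0.0785, 0.508 and 0.109 by the same exact test. Some words share letters. AGGAAGT overlapped AGAGGAAG in 49 member windows and GGAANTGAA in 33, so their counts are not separate. TGANTCA overlapped an ETS word in none. None of the 10 higher words was present at 435 of the 1298 summits (33.5%). The share was 50.04% at start-site summits, but the 10 words were picked because they passed at the member summits. The 2 shares are therefore not a comparison.

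**Figure D5:**
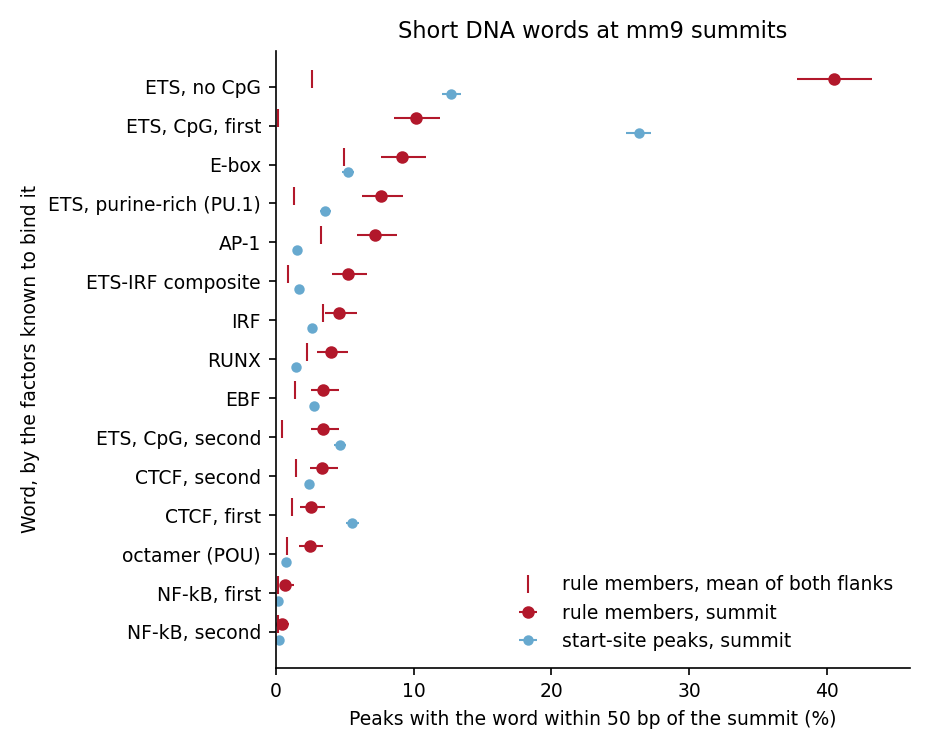
Share of mm9 peaks (%) with each of 15 words within 50 bp of the summit, for the 1298 peaks over 50 kb from gene ends (dark, with ticks for the mean of their flanks) and for 9173 peaks within 1 kb of a transcript start (light). Bars are exact 95% intervals, and words are named by factors known to bind them. The ETS word without CpG is at 40.5% of the members and 12.8% of start-site peaks, and the leading CpG-holding ETS word at 10.2% and 26.3%.

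The ETS words sat at the summits. In bins of 40 bp, the bins on both sides of the summit held 30.04 and 30.6 ETS words per 100 desert peaks, and the bins centred 100 bp away held 3.004 and 4.29. At start-site peaks the central bins held 23.7 and 24.7.

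Desert summits were poor in CpG, as were most mm9 peaks away from start sites. In windows reaching 100 bp to each side of the summit, the median GC content was 49.3% for the 699 mm9 desert peaks and 49.8% for the 599 deep intragenic ones, against 62.7% for start-site peaks. The median number of CpG was 3 in both member sets and 16 at start sites. A window counted as CpG-rich with a GC content over 50% and over 0.6 of the CpG that its C and G content gives, and 20 desert peaks (2.86%) and 24 deep intragenic peaks (4.01%) were so, against 71.7% of start-site peaks. Over all 18804 mm9 peaks 7214 windows were CpG-rich, and 6581 of these were at start-site peaks. Low CpG is therefore not particular to the peaks over 50 kb from gene ends.

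Nearly all member summits lay in sequence that the genome holds in 1 copy. For each window the median number of exact copies of its 24-base words in NCBIM37 was counted, a measure chosen after near-identical windows had been seen among the strongest peaks. It was 2 or more for 12 of 699 desert windows (1.72%, exact interval 0.890 to 2.98%) and 11 of 599 deep intragenic windows (1.84%), against 1.81% over all mm9 peaks. In the flanks of the desert peaks it was 7.44% to the left and 5.29% to the right. Whether reads that match several places were kept is not given in the sources used here, so repeated sequence may be missed. Of the 699 desert peaks, 13 (1.86%) shared 10 or more words with a peak elsewhere, against 1.79% of all mm9 peaks. The largest such group with desert peaks held 13 peaks on 9 chromosomes, of which 2 were desert peaks. Both are printed because they show the same ETS word in related sequence at 2 places.

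Gm815 to Vldlr, chr19:27203108-27203208: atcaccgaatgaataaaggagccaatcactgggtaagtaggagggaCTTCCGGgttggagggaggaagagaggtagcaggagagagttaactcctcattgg
Runx1t1 to Slc26a7, chr4:14218479-14218579: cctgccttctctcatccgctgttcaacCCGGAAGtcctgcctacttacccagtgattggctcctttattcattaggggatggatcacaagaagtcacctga

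The Vldlr peak had a signal of 243 and the Runx1t1 peak one of 79.7 in the mm9 list, and both held CCGGAAG, 1 on each strand.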

How the data were processed

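ELF1 ChIP-seq peak lists of 2 biological replicates of CH12.LX were used. The deposited README text says that each replicate's relaxed list was made from its own mm10 alignments and a control. It says that the irreproducible discovery rate then gave the optimal and conservative lists. The mm9 list came from both replicates. For the aligner and the peak caller, names and versions were not given in the sources used here. Each deposited list had in column 7 what was taken as the authors' peak signal, on a scale that is not given and that differs between lists. Column 10 of the deposited lists gave the summit's offset, an other kind of value. All coordinates are 1-based and none were converted between builds.

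Distances to gene ends used 49997 RefSeq genes of GRCm38.p6 for mm10 and GENCODE M1 for mm9. No mm10 genome sequence was used here. Shares have exact Clopper-Pearson 95% intervals, which cover counting error only. Words were tested by the exact McNemar test with Benjamini-Hochberg adjustment over 30 tests, checked on simulated sequences. Simulated summits and flanks had the same base composition, so the check does not cover summits that differ from their flanks in composition. Analysis used Python 3.11.15, numpy 2.4.6, scipy 1.17.1 and pandas 2.3.3. The rule, the words and the gene lists were chosen with earlier results of these data known. Peaks named were the 12 strongest desert peaks, the 6 strongest deep intragenic ones, the 5 farthest, those nearest the threshold, the 5 fullest stretches and, per gene list, up to 5 by signal, with the 6 strongest mm9 desert peaks that hold a word; other genes of the lists, Vldlr, Runx1t1 and internal start sites were named after their values were seen. A few items that meet these rules are not reported here. Alternatives covered distance, gene types, lists, replicates, summit matching and windows.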

Additional observations from a re-analysis of the deposited data

How the results depend on the processing

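The share of optimal peaks over 50 kb from gene ends follows the rule's own settings: 14.0% at 20 kb, 0.946% at 100 kb, 13.0% with coding genes only, 1.12% outside genes only and 2.96% within the stronger 50% of the list. On the strongest entries of 1 replicate alone it was 4.01 to 4.12%. The mm9 share was 17.5% at 20 kb, 2.29% at 100 kb, 10.8% with coding genes only and 3.72% outside genes only. Desert density was 0.461 per Mb at 100 kb and 2.16 with coding genes only. The share of the 1171 peaks in both replicates was 84.2%. It was 79.3% at 100 kb, 98.4% within the stronger 50%, 70.0% with summits matched within 50 bp, 96.5% within 250 bp, 53.6% among the strongest entries, and 88.0% with overlapping entries merged, a setting added once the main value was known. The median signal, 31.7 over the 1171, was 56.1 within the stronger 50% and 33.4 after merging, and 14.3 to 20.02 on the scale of 1 replicate's list. The cause of these shifts was not tested beyond what each setting removes or adds.

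The number of words higher at mm9 summits ran from 7 to 13 over 6 other settings of window, flank, gene types and peak subset, against 10. Of 90 single-word values under these settings, 74 kept direction and side of the threshold, 8 fell short of it and 7 newly passed. The IRF word GAAANNGAA, which passed under none of them, turned to −0.15 percentage points within the stronger 50% of members. The octamer, EBF1 and AGGTGGC words fell short with windows of 25 bp each side and within the stronger 50%. No paired analysis was possible because there is 1 group of samples; the word tests pair windows within a peak.

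Depth per peak is unknown, mappability was not measured, and peak lists record only sites past a threshold, so an empty stretch is not shown to be unbound.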
